A study of Mus musculus with 2 samples.

Results

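Parietal endoderm nuclei were sought among 15341 barcodes of a single-nucleus multiome, in which nuclear RNA and accessible chromatin were read from the same nuclei. Members were chosen by RNA: they were the 100 nuclei with the highest score among the 11934 barcodes that had 3000 to 40000 UMIs (counted RNA molecules) and at least 2000 peak counts (0.838% of those barcodes). The score was the mean over Sparc, Lamb1, Lama1, Col4a1, Col4a2, Pth1r, Srgn and Plat, minus the mean over Cubn and A1cf, of the natural log of 1 plus UMIs per 10000. The 30 highest nuclei are described apart from the other 70, and both are set against the 11834 remaining barcodes of the depth range, called the other barcodes. A visceral endoderm reference held the 500 nuclei among the other barcodes with the highest mean of Cubn and A1cf.

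Whole mouse embryos of embryonic day 7.0, the stage of gastrulation, were pooled, dissociated and taken through nuclei isolation, with no treatment and no mutation named. There was 1 RNA library and 1 accessibility library, and every barcode carried the same suffix, so no nucleus could be assigned to an embryo and no test between samples was possible. The labels conflicted: title, age and protocol gave E7.0 embryos, whereas source, tissue, cell type and strain gave a small intestine section, distal colon, goblet cells and RedMUC298trTg. Title and age were taken as correct here. Every interval given is a 95% interval for counting error only.

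Parietal endoderm arises from the primitive endoderm, leaves the epithelium and migrates over the inner surface of the trophoblast. It secretes Reichert's membrane, a thick basement membrane of laminin, collagen IV, nidogen and perlecan, and it also makes SPARC, a collagen-binding matrix protein. Visceral endoderm, its sister tissue, stays epithelial around the embryo, takes up maternal proteins through cubilin and makes apolipoproteins. Parathyroid hormone-related peptide, acting through the receptor Pth1r and cyclic AMP, is known to promote parietal differentiation.

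The promoters of matrix genes are shown first because their accessibility is compared with RNA below. The windows run from 250 bases before to 50 after a RefSeq start (GRCm38.p6, the assembly also called mm10). Col4a1 (chr8:11312777-11313076, minus strand) and Col4a2 (chr8:11312555-11312854, plus strand) encode the 2 chains of the main collagen IV and start 21 bp apart on opposite strands. Each is read across the start of the other, so that the last 78 bases of both windows are shared. Lamb1 (chr12:31265043-31265342, plus strand) encodes the laminin beta 1 chain, and Sparc (chr11:55420031-55420330, minus strand) encodes SPARC. P4ha2 (chr11:54100674-54100973, plus strand) encodes a prolyl hydroxylase subunit needed for collagen folding. Capitals mark every match, on either strand, to any of 5 motifs. The motif of GATA factors was spelled GATAA, the GC box GGGCGG, the CCAAT box by its own letters, the core promoter box of that name TATAAA and the motif of SOX factors ACAAT. Each sequence runs 5′ to 3′ on the strand of its gene.
Col4a1: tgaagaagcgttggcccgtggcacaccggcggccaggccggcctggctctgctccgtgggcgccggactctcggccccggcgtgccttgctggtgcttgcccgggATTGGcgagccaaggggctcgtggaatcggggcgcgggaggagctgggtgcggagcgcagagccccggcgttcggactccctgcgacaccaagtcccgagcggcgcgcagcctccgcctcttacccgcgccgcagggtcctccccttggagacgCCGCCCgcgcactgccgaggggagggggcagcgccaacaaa
Col4a2: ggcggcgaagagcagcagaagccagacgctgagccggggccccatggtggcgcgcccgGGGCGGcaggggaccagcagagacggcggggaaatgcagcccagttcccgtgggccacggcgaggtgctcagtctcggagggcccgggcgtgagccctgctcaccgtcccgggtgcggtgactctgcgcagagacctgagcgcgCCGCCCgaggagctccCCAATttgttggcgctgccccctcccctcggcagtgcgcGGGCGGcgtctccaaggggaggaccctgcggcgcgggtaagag
Lamb1: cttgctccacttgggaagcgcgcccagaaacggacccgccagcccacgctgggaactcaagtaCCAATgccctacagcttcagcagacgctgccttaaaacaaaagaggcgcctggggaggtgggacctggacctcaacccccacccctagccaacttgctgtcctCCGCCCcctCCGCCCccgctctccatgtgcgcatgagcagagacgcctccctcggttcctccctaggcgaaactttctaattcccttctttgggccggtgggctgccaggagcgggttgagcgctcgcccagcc
Sparc: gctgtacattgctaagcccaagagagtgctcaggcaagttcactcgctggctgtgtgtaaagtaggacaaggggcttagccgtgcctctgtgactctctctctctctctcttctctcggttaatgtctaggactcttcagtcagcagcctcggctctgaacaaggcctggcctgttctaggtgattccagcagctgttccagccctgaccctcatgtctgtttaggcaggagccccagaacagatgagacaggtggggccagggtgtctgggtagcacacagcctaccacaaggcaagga
P4ha2: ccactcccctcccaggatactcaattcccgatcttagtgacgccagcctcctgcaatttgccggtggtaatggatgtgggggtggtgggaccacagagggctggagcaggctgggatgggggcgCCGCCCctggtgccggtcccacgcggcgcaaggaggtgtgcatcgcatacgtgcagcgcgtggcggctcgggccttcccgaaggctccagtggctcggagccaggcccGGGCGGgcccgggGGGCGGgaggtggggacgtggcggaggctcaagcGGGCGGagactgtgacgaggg
Over all 32851 promoters of the RefSeq table, 25.4% held the GATA motif on either strand, 35.7% the GC box, 37.4% the CCAAT box, 13.6% the TATA box and 31.0% the SOX motif. The Col4a1, Col4a2 and Lamb1 windows each held a CCAAT box, with 1 GC box in the Col4a1 window, 2 in that of Lamb1 and 3 in that of Col4a2. The GC box of Col4a1 lies in the shared bases and is also 1 of the 3 of Col4a2. The P4ha2 window held 4 GC boxes. The Col4a1, Col4a2, Lamb1, P4ha2 and Sparc windows were 74%, 73.7%, 63.7%, 70.3% and 55.3% G or C, against a median of 52.7% over all promoters. The Sparc window held none of the 5. No match in a window says only that these letters were not there.

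The members were close to the other barcodes in UMIs and lower in peak counts. The top 30 had a median of 11392 UMIs and 17647 peak counts per nucleus, the other 70 had 12163 and 17723, and the other barcodes 11512 and 19738. Scrublet, which scores nuclei against simulated mixtures, called 1 of the top 30 and 3 of the other 70 as doublets, against 7.55% of the other barcodes. Called nuclei were kept. The mitochondrial share of UMIs was 0.0746% in the top 30, 0.0829% in the other 70 and 0.0940% in the other barcodes.

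The score fell from 3.0 at rank 1 to 1.59 at rank 30 and 1.55 at rank 31, and then more slowly, to 0.723 at rank 100 and 0.721 in the next nucleus, which was no member. There was thus no step in the score at either limit. The RNA of the 10 score genes chose the members, so their values are a description. Lama1, the laminin alpha 1 chain, had 3830 CPM (UMIs scaled to 1000000 UMIs) in the lowest of the top 30 nuclei, 7797 in the median and 16770 in the highest. In the other 70 it ranged from 0 to 9800 with a median of 131, and in the other barcodes 0.0676% of nuclei reached the lowest value of the top 30. Col4a1 ran from 1032 through 4482 to 9611 CPM in the top 30, and its median was 462 in the other 70 and 60.5 in the other barcodes. Col4a2 ran from 1269 through 4368 to 8315 CPM in the top 30. All 30 nuclei had UMIs of Lama1, Lamb1, Col4a1, Col4a2, Sparc, Pth1r and Srgn, whereas Plat, the tissue plasminogen activator, was seen in 16 of 30.

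Summed over nuclei, Lama1 was 136-fold higher in the top 30 than in the other barcodes and 16.2-fold higher in the other 70. Sparc was at 4812, 801 and 156 CPM in the top 30, the other 70 and the other barcodes, and Lamb1 at 3364, 680 and 129. Srgn, a proteoglycan core protein, was at 723, 160 and 22.6 CPM. Pth1r was at 595, 148 and 37.1 CPM and had the smallest fold of the 8 in the top 30, 16-fold. The order of the 3 groups was the same for all 8 genes. Cubn, the subtracted endocytic receptor, was at 230, 250 and 1487 CPM and at 10320 in the visceral reference, and A1cf had 1 UMI in the top 30 and 0 in the other 70.

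**Figure D1:**
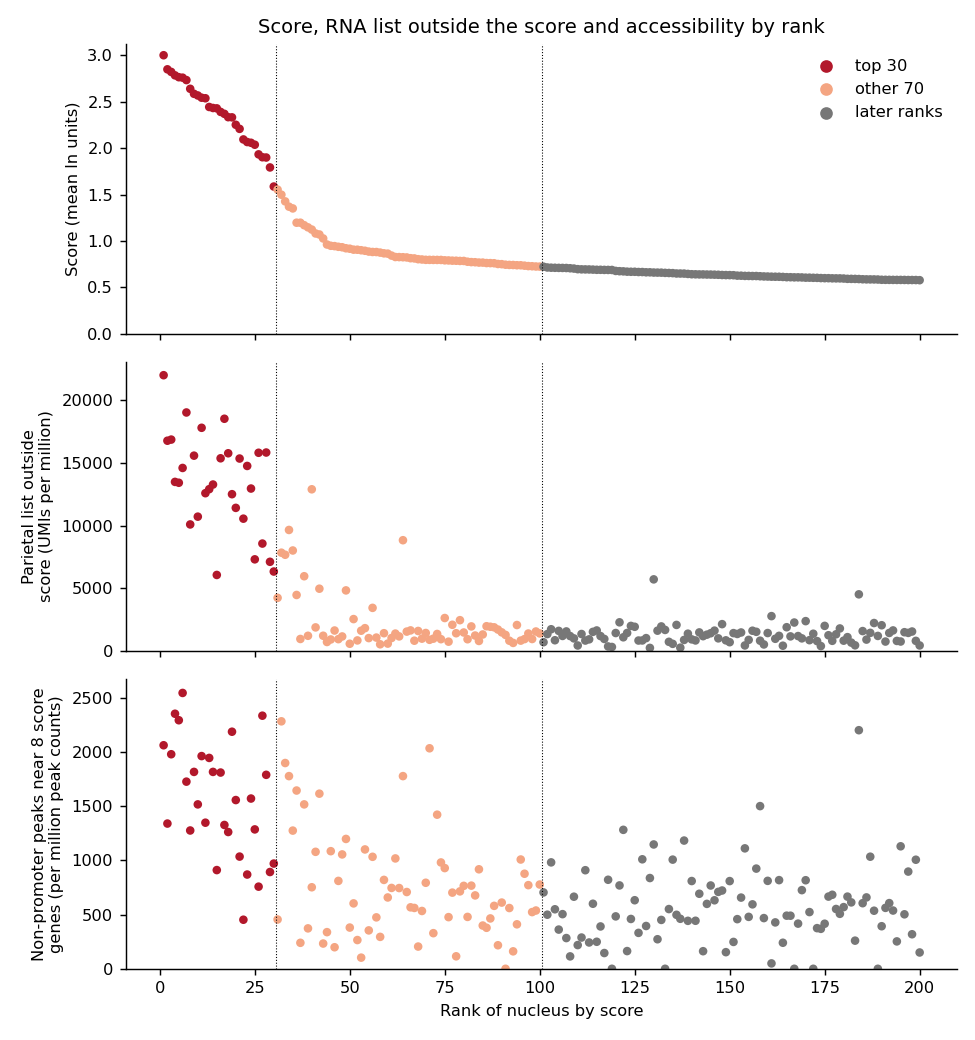
Each point is 1 nucleus, ordered by score from rank 1 to 200 on the x axis; the panels give the score, the summed CPM of the parietal list outside the score, and the counts in non-promoter peaks near the 8 score genes (peak CPM). The score has no step at rank 30, while the list outside the score runs from 6075 to 21990 in the top 30 and has a median of 1424 in the other 70.

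Genes known for parietal endoderm but not used by the score were higher in the top 30 than in most of the other 70. The members and the list of these genes were chosen with earlier results of these data known, so their values are not an independent check. The 16 genes of that list summed to 12990 CPM in the top 30 (12640 to 13360), 2436 in the other 70 and 1280 in the other barcodes, a 10.2-fold (9.87 to 10.4) and a 1.90-fold (1.83 to 1.98) difference. The visceral reference stood at 3351 CPM, above the other 70. By nucleus the list ran from 6075 CPM through 13460 to 21990 in the top 30. Over the other 70 it ran from 551 through 1424 to 12900, and 6 of the 70 reached the lowest of the top 30. In the other barcodes the median was 845 and 0.346% of nuclei reached that level, and in the visceral reference the median was 3176 and 3.2% reached it. In the top 30, 13 of the 16 genes were at least 2-fold higher, 1 was at least 2-fold lower, 1 lay between and 1 had under 5 UMIs both seen and expected. Over all 9821 genes with 5 UMIs seen or expected, 9.79% were at least 2-fold higher in the top 30 and 16.8% at least 2-fold lower. The median log2 fold of the 15 counted list genes was 3.48, beside -0.131 over all genes. Of the 16, 9 were at least 2-fold higher and 5 lay between in the other 70, against a background of 6.32% higher and 7.37% lower over 11925 genes.

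Within that list the genes differed widely. Genes named from any list beyond its 5 most counted were picked after their values were seen. Lamc1, the laminin gamma 1 chain, had 2161 CPM in the lowest of the top 30, 4843 in the median and 7245 in the highest, and summed to a 44.9-fold (42.7 to 47.1) difference from the other barcodes. Nid1, the linker of laminin and collagen IV, was 69.7-fold higher (63.6 to 76.4), and it was seen in 30 of 30 nuclei and 24 of the other 70. Thbd, the thrombin receptor thrombomodulin, was at 207 CPM in the top 30, 3.17 in the other 70, 0.603 in the other barcodes. None of the 500 visceral nuclei had a Thbd UMI, which allows up to 0.735% of such nuclei to have one and sets no limit on how many express the gene. Thbd was seen in 26 of 30 nuclei, 2 of 70 and 0.499% of the other barcodes. After each nucleus was thinned to 3000 UMIs the shares with Thbd were 53.3% (34.3 to 71.7), 1.43% and 0.152%. Fst, the activin inhibitor follistatin, was 11.2-fold higher in the top 30 but lower in the other 70, at 1790, 99.4 and 160 CPM. Dab2, an endocytic adaptor that the visceral reference held at 2326 CPM, did not separate the groups, with 518, 533 and 489 CPM. Without Dab2 the list was 15.8-fold higher in the top 30 and 2.41-fold higher in the other 70, and the nuclei reaching the lowest of the top 30 numbered 5 of the 70 and 3 of the 11834 other barcodes.

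Few matrix genes carried the basement membrane signal. A list of 26 basement membrane genes outside the score also held Lamc1 and Nid1 of the parietal list. Of the 26 genes, 6 were at least 2-fold higher in the top 30, 5 at least 2-fold lower, 4 lay between and 11 were too low to count (over all genes 9.79% were higher and 16.8% lower). Their sum was 5.33-fold higher (5.13 to 5.53), yet the median log2 fold of the 15 counted genes was -0.418. Without Lamc1 and Nid1 the sum was 0.773 times that of the other barcodes, so the direction rested on those genes. The other genes at least 2-fold higher were Hspg2 (perlecan, 171 against 55.8 CPM), Pxdn (peroxidasin, which crosslinks collagen IV, 240 against 92.2), Lama4 (30.6 against 5.95) and Lamb2 (30.6 against 6.87). Lama5, the laminin alpha 5 chain, was at 25.5 CPM in the top 30, 235 in the other 70 and 107 in the other barcodes. Fn1, fibronectin, was at 102, 596 and 395 CPM and was seen in 10 of the top 30. Col18a1 was at 25.5 against 108 CPM, Col4a5 had 1 UMI and Col4a6 had 0, against 7.16 and 7.90 expected from the other barcodes. Nid2, Agrn, Smoc1 and Fbln1 lay between, at 71.5, 61.3, 48.5 and 91.9 CPM. In the other 70, 8 of the 26 genes were at least 2-fold higher and 0 lower (over all genes 6.32% and 7.37%), and the sum was 1.93-fold higher (1.85 to 2.01).

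**Figure D2:**
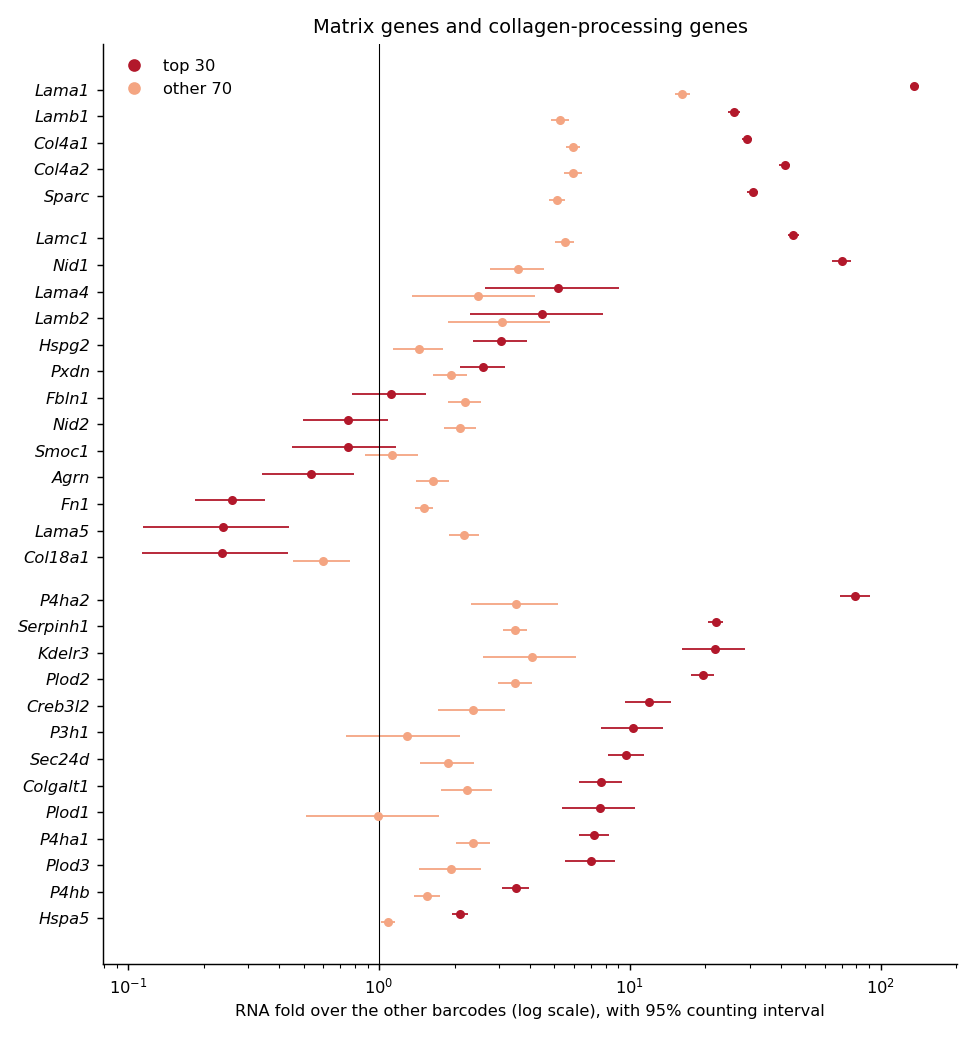
RNA fold over the other barcodes (log axis, bars are 95% counting intervals) for matrix genes of the score, further basement membrane genes and collagen-processing genes, in the top 30 and the other 70. Lamc1 and Nid1 lie with the score genes in the top 30, while Fn1, Lama5 and Col18a1 lie to the left of 1.

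The machinery that modifies and exports collagen was high as a group in the top 30. Of 24 such genes, 17 were at least 2-fold higher, 0 lower, 4 between and 3 too low (9.79% higher and 16.8% lower over all genes), with a median log2 fold of 2.80 over 21 counted genes. Their sum was 9590 CPM in the top 30, 3291 in the other 70 and 2166 in the other barcodes (4.43-fold, 4.29 to 4.57, and 1.52-fold, 1.47 to 1.57). Serpinh1, the collagen chaperone and also a gene of the parietal list, was at 2097, 333 and 95.4 CPM. P4ha2 was at 638, 28.5 and 8.09 CPM, a 78.9-fold difference (68.6 to 90.5), and was found in 29 of the top 30 and 10 of the other 70. Plod2, a lysyl hydroxylase, was at 1011, 181 and 51.9 CPM. The endoplasmic reticulum chaperone Hspa5 was at 1862, 961 and 883 CPM, and P4hb, the other prolyl hydroxylase subunit, at 695, 309 and 198. Creb3l2, a transcription factor of secretory cells, was 11.9-fold higher and Sec24d, a coat protein of export vesicles, 9.69-fold higher in the top 30. Mia3 and Mia2, which help load bulky cargo, were at 174 and 164 CPM against 104 and 189.

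Endoderm transcription factors divided. In the top 30, 11 of 21 were at least 2-fold higher, 5 at least 2-fold lower, 2 between and 3 too low, beside 9.79% higher and 16.8% lower over all genes. Gata4, Gata6, Sox17, Sox7 and Snai1 were also genes of the parietal list and are counted in both. Gata4 and Gata6, which drive primitive endoderm fate, were at 723 and 452 CPM against 154 and 82.6. Sox7 was at 192 CPM in the top 30, 9.52 in the other 70 and 5.05 in the other barcodes, and Sox17 at 263, 120 and 32.5. Sox7 was thus 37.9-fold higher (29.5 to 48.1) in the top 30, and in the other 70 its 1.88-fold value had an interval of 0.858 to 3.59. Snai1 and Zeb1, repressors of epithelial genes, were at 156 and 102 CPM in the top 30 against 37.9 and 20.8. Their relative Zeb2 went the other way, at 28.1 against 126 CPM, as did Otx2 (28.1 against 106) and Eomes (53.6 against 142). Tead1, a partner of the Hippo pathway's coactivators, was at 899, 510 and 414 CPM, and Cited1 at 169, 304 and 127.

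Epithelial and mesenchymal genes went both ways in the top 30. Of 20, 4 were at least 2-fold higher there (Vim, Zeb1, Snai1 and Tagln), 7 at least 2-fold lower, 4 between and 5 too low, beside 9.79% higher and 16.8% lower over all genes. Snai1 and Krt19 were also genes of the parietal list. Cdh1, E-cadherin, was at 38.3 CPM in the top 30, 299 in the other 70 and 258 in the other barcodes. Cldn6, a tight junction claudin, was at 51.1, 388 and 160 CPM, and Epcam at 169, 410 and 284. The keratin Krt8 was at 250, 534 and 164 CPM and Krt18 at 140, 345 and 163. Cdh2, N-cadherin, was at 53.6 CPM against 302 in the other barcodes, so both cadherins were low. The other 70 had 5 of these genes at least 2-fold higher and 0 lower, beside 6.32% and 7.37% of all genes.

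The further genes of the pathway of parathyroid hormone-related peptide had no shared direction in the top 30. The receptor itself, Pth1r, helped to choose the members and is not counted among them. Of 30 ligand, receptor-relay and cyclic AMP genes, 4 were at least 2-fold higher, 4 at least 2-fold lower, 10 between and 12 too low, beside 9.79% higher and 16.8% lower over all genes. Pthlh, the ligand itself, had 0 UMIs in the 100 members and was at 0.0779 CPM in the other barcodes. Pde4d, which degrades cyclic AMP, was at 1425 CPM in the top 30, 125 in the other 70 and 181 in the other barcodes. Ramp2, a partner protein of such receptors, was at 105, 21.1 and 12.1 CPM. Gnas, the stimulatory G protein subunit, was at 337, 454 and 450 CPM, Gnaq at 202, 162 and 208 and Creb1 at 138, 166 and 174. The median log2 fold of the 18 counted genes in the top 30 was -0.376.

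Proteases and their inhibitors were mixed, with 5 of 22 at least 2-fold higher in the top 30, 3 lower, 5 between and 9 too low, beside 9.79% higher and 16.8% lower over all genes. Adamts9, a secreted protease of matrix proteoglycans, ran from 176 CPM through 2115 to 4410 in the top 30 and was 13-fold higher (12.2 to 13.9), against 1.15-fold in the other 70. The inhibitors Timp1, Timp2 and Timp3 were at 56.2, 30.6 and 79.2 CPM against 2.56, 3.94 and 18.5. Ctsl and Ctsz, lysosomal proteases, were at 1065 and 202 CPM against 692 and 162, and Ctsb was at 156 against 166. Of 15 matrix receptors, Itga6, a laminin-binding integrin chain, was the single gene at least 2-fold higher in the top 30 (202 against 60.7 CPM). Its partner Itgb1 was at 289 against 306 CPM, and 5 receptors, Dag1 (dystroglycan) and Ddr1 among them, were at least 2-fold lower, beside the same shares of all genes.

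Signalling genes went both ways in the top 30: 9 of 42 were at least 2-fold higher, 18 lower, 13 between and 2 too low, beside 9.79% higher and 16.8% lower over all genes, which were thus also more often low than high. The high genes included secreted modulators, Fst and Bmper (743, 61.3 and 62.9 CPM), and Ccn1 and Ccn2, matrix proteins known as Hippo pathway targets (485 and 107 CPM against 86.4 and 9.14). Pdgfra, a receptor of the primitive endoderm lineage, was at 386, 155 and 64.2 CPM. Fst and Pdgfra were also genes of the parietal list. The FGF response genes Etv4, Etv5, Spry4 and Dusp6 were at 5.11, 12.8, 5.11 and 23.0 CPM in the top 30 against 31.7, 116, 28.1 and 73. The BMP response genes Id1, Id3 and Smad6 were also at least 2-fold lower, at 58.7, 63.9 and 12.8 CPM against 163, 173 and 69.5. Igf1r was at 125 against 357 CPM and Fgfr2 lay between, at 179 against 293. Flt1, a VEGF receptor, was at 232, 544 and 136 CPM.

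Genes outside every list also had high folds in the top 30. Of 4544 genes with at least 20 UMIs in the top 30, 203 were at least 4-fold higher (4.47%), with 97 after thinning and 971 without the minimum. That minimum lets a gene pass through the nuclei where it is high, so the share is read as a description. Ptger3, a prostaglandin E2 receptor, was at 197 CPM in the top 30, 1.06 in the other 70 and 1.17 in the other barcodes (167-fold, 127 to 220). It was seen in 22 of 30 nuclei and 1 of 70, and after thinning in 40.0% of the top 30 and 0.431% of the other barcodes. Nog, the BMP inhibitor noggin, was 102-fold higher (80.2 to 130). Arhgap6, a GTPase-activating protein, had 705 CPM in the lowest of the top 30, 7975 in the median and 19450 in the highest. It summed to 7935 CPM against 398 in the other 70 and 79.8 in the other barcodes. Its neighbour Gm15261, a predicted transcript 33.3-fold higher, starts inside Arhgap6, and reads of overlapping genes may not be told apart, because no source used here states whether counting used strand.

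The rest of the 20 genes with the highest folds ranged from 81.0-fold for Nrg2 to 16.4-fold for Pip5k1b. They included Epas1, a hypoxia-regulated transcription factor (610, 176 and 8.23 CPM), and F3, tissue factor, the starter of coagulation (414, 26.4 and 10.5 CPM). F3 and Thbd, which act on opposite sides of coagulation, were thus both high. Hs3st1, which sulfates heparan chains, was at 375 against 4.74 CPM, and Cemip, which depolymerizes hyaluronan, at 388 against 6.59. The guidance receptor Robo2 was at 1098, 143 and 20.9 CPM and the adhesion protein Flrt2 at 360, 45.5 and 10.5. Mme, the membrane peptidase neprilysin, was at 235, 19.0 and 10.4 CPM. The remaining ones were Mical2, Spock1, Fhod3, Prkaa2, Slc7a1, Arhgef28 and Ryr2. Of the 20, Epas1 had the highest fold in the other 70 (21.3, 18 to 25.1), where 17 nuclei held it.

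Among genes expected at 50 UMIs or more, the lowest in the top 30 were Gramd1b, Farp1, Spata13, Gldc, Atp8a1, Pcdh7, Hs6st2, Nav1, Pid1 and Tenm4. Gramd1b, a cholesterol transfer protein, was at 25.5 CPM in the top 30 and 252 in the other barcodes, and at 1083 in the visceral reference. Gldc, an enzyme of glycine breakdown, was at 33.2 against 268 CPM and at 780 in the visceral reference. Tenm4, by contrast, was at 48.5 against 320 CPM and at 15.6 in the visceral reference.

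Summed over nuclei, 6 of 9 marker lists of other cell types were lower in the top 30 than in the other barcodes. By nucleus the order of the medians differed for some of them. The 20 visceral endoderm genes summed to 1655 CPM (1530 to 1787) in the top 30, 3993 in the other 70, 3407 in the other barcodes and 10550 in the visceral reference. Subtracting Cubn and A1cf in the score favours a low visceral list, and without it the fold in the top 30 was 0.680 instead of 0.486. By nucleus that list ran from 317 through 1627 to 3556 CPM in the top 30, and its median lay above that of the other barcodes (1535). In the top 30, 0 of 20 were at least 2-fold higher, 13 at least 2-fold lower, 5 between and 2 too low. For this and the following marker lists, 16.8% of all genes were also at least 2-fold lower and 9.79% higher. Apob was at 89.4 CPM and Afp at 20.4 in the top 30, against 640 and 125. The homeobox gene Rhox5 was at 370 CPM in both the top 30 and the other barcodes, and Lrp2 (megalin) was at 360 against 251. The 10 epiblast genes summed to 723 against 2104 CPM, with 8 at least 2-fold lower and 0 higher. Embryonic mesoderm genes summed to 245 against 332 CPM, with 6 of 11 at least 2-fold lower, T (brachyury) at 0, and 1 higher, Snai1, a gene also of the parietal list. By nucleus their median was 183 CPM in the top 30 and 176 in the other barcodes. Extraembryonic mesoderm genes summed to 141 against 137 CPM, where 102 CPM came from Ahnak and Hand1 had 2 UMIs, and their median by nucleus was 107 against 0. Extraembryonic ectoderm genes summed to 416 against 678 CPM, with 7 of 11 at least 2-fold lower, Cdx2 at 1 UMI, and 2 higher, Tead4 (102 against 45 CPM) and Rhox6 (25.5 against 7.02). Haemato-endothelial genes summed to 94.5 against 173 CPM, with Tal1, Fli1 and Cdh5 at 0, and giant cell and ectoplacental cone genes to 40.9 against 93.2 CPM, with Prl3d1 and Tpbpa at 0. Immune genes summed to 10.2 CPM, 4 UMIs, with Ptprc at 0. The decidua list was 4.01-fold higher (2.74 to 5.67), at 81.7 against 20.4 CPM, and 27 of its 32 UMIs were Cryab, also a gene of the parietal list. By nucleus the decidua list ran from 0 through 41.8 to 461 CPM in the top 30 and had a median of 0 in the other barcodes. Of the other 12 decidua genes Dcn, Col1a1, Col3a1 and Prl8a2 had 0 UMIs.

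Genes of DNA replication and mitosis did not set the members apart. All 18 lay between the 2-fold limits in both the top 30 and the other 70, with sums of 3765, 3911 and 3997 CPM. Mki67 was at 324, 295 and 282 CPM and Top2a at 444, 592 and 624. Of 14 cell cycle inhibitor and endocycle genes, Cdkn2b was at least 2-fold higher in the top 30 on 5 UMIs, Ccnd1, Ccnd2, Ccne1 and Cdkn1c were at least 2-fold lower, 7 lay between and 2 were too low, beside 9.79% higher and 16.8% lower over all genes.

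**Figure D3:**
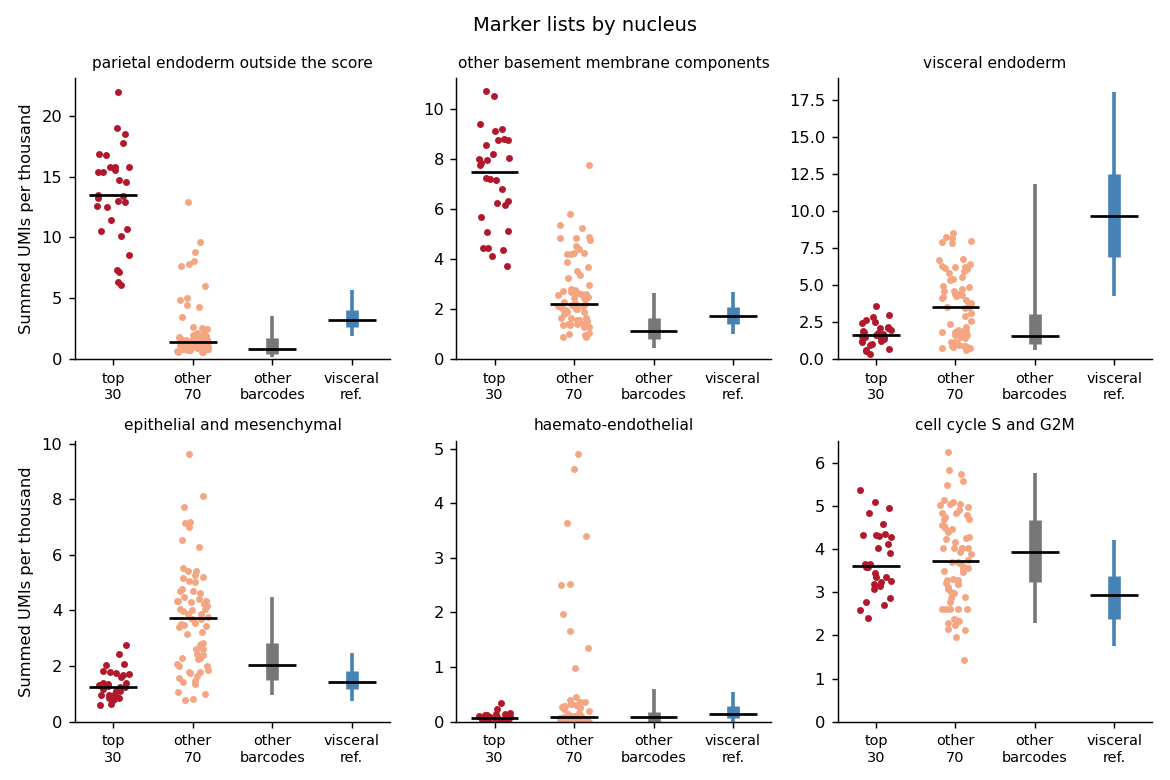
Summed UMIs per 1000 of 6 marker lists; points are the nuclei of the top 30 and the other 70 with the median as a line, and bars give the quartiles and the span from the 5th to the 95th percentile of the other barcodes and of the visceral reference. For the parietal and basement membrane lists 6 and 15 of the other 70 reach the lowest of the top 30, and a few of the other 70 are high in the haemato-endothelial list.

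Most of the other 70 did not reach the parietal list level of the top 30, and they are called here by their rank alone. Of the 70, 63 had the parietal list outside the score below 5064 CPM, the 99th percentile of the other barcodes. Since this list and the score chose the subsets, the values of their genes are a description. In those 63, Lamc1 was at 351 CPM and Nid1 at 40.0, which lay above the 104 and 20.4 of the other barcodes and under the 4679 and 1420 of the top 30. The 6 nuclei that reached the lowest of the top 30 lay between rank 32 and rank 64 and had Lamc1 at 2650 CPM, Nid1 at 397 and Dab2 at 2218. Of genes outside the score and the list they held Flt1 at 1097 CPM, against 232 in the top 30, and Arhgap6 at 934, against 7935. Their visceral list stood at 5230 CPM, against 1655 in the top 30, and 1 of the 6 was a doublet call. They were picked after their values were seen, by a limit on a list level, so they are a range and not a type.

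Some genes high in the other 70 were also high in the top 30, some were nearly absent there, and some, such as Dkk1, were near the level of the other barcodes. Of 7661 genes with at least 20 UMIs in the 70, 67 were at least 4-fold higher (0.875%). The count was 207 for members scored without subtraction, 129 with score genes divided by their SD, 29 after thinning and 826 without a minimum. The Wnt receptors Fzd5 and Fzd8 were at 211 and 104 CPM against 26.5 and 16.1 in the other barcodes, with 1 UMI each in the top 30. Sfrp1, a Wnt inhibitor, was at 356 against 61.0 CPM, with 4 UMIs in the top 30, and Ovol2, an epithelial regulator, at 56.0 against 11.2. Pga5, S100g, Chst15, Hkdc1 and Aqp8 were high in both groups, for example Aqp8 at 309, 152 and 24.1 CPM. The listed genes Krt19, Lama5, Cer1, Lefty1, Car4, Cldn6 and Nodal, picked after their values were seen, were each at least 2-fold lower in the top 30 and at least 2-fold higher in the other 70, in comparisons that share the other barcodes. Over all genes 16.8% were at least 2-fold lower in the top 30 and 6.32% at least 2-fold higher in the other 70. The share of all genes that did both was not counted, so these genes are examples. Cer1 and Lefty1, Nodal inhibitors known from anterior visceral endoderm, were at 12.8 and 2.55 CPM in the top 30, 146 and 137 in the other 70, and 34.2 and 21.0 in the other barcodes. Dkk1, a further secreted inhibitor, was at 33.2, 230 and 40.2 CPM. Cer1 was seen in 32 of the 70 nuclei, at up to 2227 CPM, and Lefty1 in 16.

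The 70 were not alike. By nucleus the haemato-endothelial list ran from 0 through 91.2 to 4891 CPM, and 10 of the 70 (14.3%) lay at least 4 times above the pooled level of the other barcodes, against 0 of the top 30 and 4.12% of the other barcodes. The epithelial and mesenchymal list, which sums genes of both kinds, ran from 796 through 3733 to 9633 CPM in the 70. Its median was 1260 in the top 30 and 2029 in the other barcodes. Igfbp1 was 44.3-fold higher, yet 7 nuclei held all of its 78 UMIs. Genes with the highest fold of the other 70 over the top 30 also included Dpyd, Epha7, Herc3, Dapk2 and Dsc2, with 0 UMIs in the top 30, and Plxna2, Mecom and Prdm1, with 1 each. With 3 counts set in place of 0 in the top 30, Dpyd would be 21.5-fold higher and Dapk2 12.3-fold higher, values that are not limits of an interval. In the opposite direction Nrcam, an adhesion protein, was at 197 CPM in the top 30, 6.34 in the other 70 and 73.1 in the other barcodes, and Cacna1d at 541, 36.0 and 57.8. Among the genes lowest in the other 70 were Kcnj3, Nrcam, Gm13270, Magi2, Cacnb2, Frmd5, Sema6a, Ctnna2 and Ldb2, from 8.46 against 101.0 CPM for Kcnj3, a potassium channel, to 21.1 against 109.5 for Ldb2. Of these, Nrcam alone was above the other barcodes in the top 30. Membership of the other 70 also depended on the rule. Scored without subtracting Cubn and A1cf, 27 of the top 30 stayed in the top 30, while 10 of the other 70 stayed in the other 70, and the parietal list outside the score rose from 1.90-fold to 3.78-fold in ranks 31 to 100.

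Which peaks were accessible was not used by the rule, which asked for a minimum of peak counts alone, and around the 8 score genes accessibility differed more in non-promoter peaks than at promoters. A promoter here ran from 1000 bp before a start to 100 bp after it, and non-promoter peaks were counted within 50000 bp of a start. The 11 promoter peaks of the 8 score genes held 305 peak CPM (counts scaled to 1000000 peak counts) in the top 30, 241 in the other 70 and 184 in the other barcodes. That made a 1.66-fold (1.34 to 2.03) and a 1.31-fold (1.12 to 1.52) difference. The 144 non-promoter peaks around them held 1505, 748 and 548 peak CPM, or 2.75-fold in the top 30 (2.50 to 3.01), and 1074 in the visceral reference. By nucleus those peaks took from 453 through 1565 to 2547 peak CPM in the top 30, with a median of 691 in the other 70, 474 in the other barcodes and 1060 in the visceral reference. Of the top 30, 29 lay above the median of the other barcodes and 23 above that of the visceral reference. The groups overlapped, since 2.38% of the other barcodes reached the median of the top 30. Over all genes with 10 counts seen or expected, 4.88% of promoters and 6.40% of non-promoter windows were at least 2-fold higher in the top 30.

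Promoter peaks of single score genes held few counts in the top 30. Lama1 was at 74.5 peak CPM in the top 30, 39.6 in the other 70, 33.3 in the other barcodes and 59.1 in the visceral reference (2.24-fold, 1.40 to 3.39, in the top 30). The Sparc promoter (chr11:55419483-55420381) was at 20.8 against 18.8 peak CPM, a fold of 1.10 with an interval of 0.444 to 2.28. The peak over the shared Col4a1 and Col4a2 starts (chr8:11312249-11313190), which covers the printed windows, was at 22.5 against 28.7 peak CPM, a fold of 0.784 (0.315 to 1.62). Intervals this wide hold both a lower and a higher promoter in the top 30, so a difference was not detectable at this depth. The Lamb1 start peak (chr12:31264897-31265619) was at 38.1 against 20.1 peak CPM, a fold of 1.90 (0.948 to 3.41). Another promoter peak of Lamb1 (chr12:31263680-31264341) had 1 count in the top 30. It was at 1.73 against 5.12 peak CPM (0.339-fold, 0.00856 to 1.89) and at 18.8 in the visceral reference. Pth1r was at 50.3 against 31.3 and Plat at 24.3 against 19.6 peak CPM. Srgn has 2 promoter peaks: that at chr10:62528235-62529147 was at 60.7 peak CPM in the top 30, 40.4 in the other 70, 12.5 in the other barcodes and 66.3 in the visceral reference. The second (chr10:62508313-62509199) had 0 counts in the top 30 and 10.1 peak CPM in the other barcodes, where 0 counts allow a fold of up to 1.16. The Cubn promoter had 0 counts in the top 30, 5.79 peak CPM in the other barcodes and 23.4 in the visceral reference, and its fold could be up to 2.13.

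Beside Lama1 several sites were more accessible in the top 30 than in any other group. Non-promoter peaks around Lama1 held 286 peak CPM in the top 30, 53.4 in the other 70, 40.5 in the other barcodes and 122 in the visceral reference (7.06-fold, 5.66 to 8.69). Of them 4 peaks, picked after their values were seen, lay at least 30-fold above the other barcodes. The peak at chr17:67653818-67654603, between genes and nearest the start of Lrrc30, was at 48.5 peak CPM against 0.814. The peaks at chr17:67683005-67683932 and chr17:67693638-67694541, upstream of Lama1, were at 29.5 against 0.910 and 50.3 against 1.34. The peak inside Lama1 at chr17:67701576-67702335 was at 45.1 against 0.854. Another peak upstream, at chr17:67685148-67686023, was also at 29.5 peak CPM in the top 30, but at 16.8 in the other 70, 7.04 in the other barcodes and 31.5 in the visceral reference. A count in any of the 4 peaks with high folds was found in 22 of the top 30 (73.3%, 54.1 to 87.7), 6 of the other 70, 3.88% of the other barcodes and 12.4% of the visceral reference, at median depths of 17647, 17723, 19738 and 20221 peak counts. Choosing those peaks by their fold in the top 30 favours a high share there, so that share is a description. Of the 6 nuclei of the other 70 that reached the lowest parietal list level of the top 30, 3 had such a count (interval of the share 11.8% to 88.2%), as had 5 of the 41 other barcodes at that level (12.2%, 4.08 to 26.2).

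Other matrix genes differed in how far their sites were also accessible in visceral endoderm. The leading peak beside the Col4a1 and Col4a2 starts (chr8:11308436-11309232, inside Col4a1) was at 81.5 peak CPM in the top 30, 22.1 in the other 70, 12.5 in the other barcodes and 62.2 in the visceral reference. All 18 non-promoter peaks there summed to 199 peak CPM in the top 30 and 206 in the visceral reference, with 10.7-fold and 14.7-fold more RNA of Col4a1 and Col4a2 in the top 30, genes by which the top 30 were chosen. Around Lamb1 the sum was 296, 133, 61.8 and 116 peak CPM. Upstream of Lamb1 the peak at chr12:31225185-31226070, nearest the start of Gm6993, was at 53.7 against 6.53 peak CPM and 8.38 in the visceral reference. Lamc1, outside the score, had its promoter at 121, 74.0, 83.9 and 82.8 peak CPM in the same order of groups. A peak upstream of it, at chr1:153376238-153377106 and nearest the start of E330020D12Rik, was at 72.8, 11.4, 5.88 and 4.54 peak CPM. Around Nid1 the sum was 64.2 against 18.7 peak CPM (3.43-fold, 2.09 to 5.30), with 2 counts at its promoter in the top 30.

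**Figure D4:**
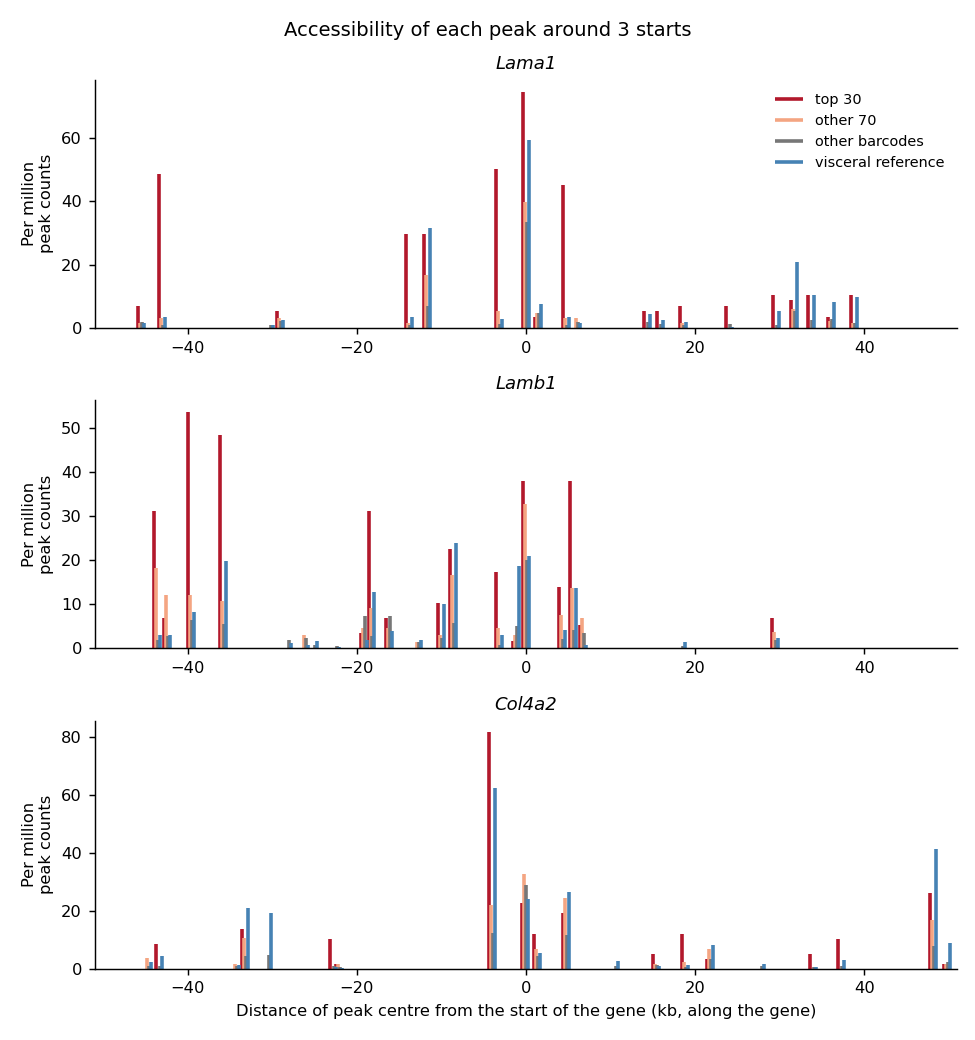
Accessibility of each peak (peak CPM) by distance of its centre from the start of Lama1, Lamb1 and Col4a2 in the direction of the gene, for the top 30, the other 70, the other barcodes and the visceral reference. Around Lama1, 4 tall bars of the top 30 away from the start have at most 5.34 in any other group and another, 29.5, has 31.5 in the visceral reference, while beside Col4a2 the tallest bar of the top 30, 81.5, has 62.2 in the visceral reference.

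Among the genes with the largest RNA folds, non-promoter peaks again differed more than promoters. Of the 20 highest-fold genes outside the lists, 2 had a promoter at least 2-fold more accessible in the top 30 and 11 had non-promoter peaks at least 2-fold more accessible, with median folds of 1.54 and 2.06. The medians over all genes were 1.19 and 0.809. Over all genes with 10 counts seen or expected, 4.88% of promoters were at least 2-fold higher and 7.86% at least 2-fold lower in the top 30. For non-promoter windows the shares were 6.40% and 19.2%, and both are the background for the counts given here. The 20 genes, however, were counted without that minimum, Arhgap6 with 2 promoter counts among them. Promoters of Slc7a1 were 3.78-fold more accessible (1.81 to 6.97), and non-promoter peaks around Nog 4.04-fold (3.13 to 5.13) with its promoter at 1.01-fold. Over the parietal list outside the score, 7 of the 12 promoters with 10 counts seen or expected were at least 2-fold more accessible and 0 lower, with a median fold of 2.18. There the non-promoter peaks differed less, with 5 of 16 genes higher, 1 lower and a median of 1.25. In the collagen list 5 of 22 such promoters were higher and 0 lower, with a median of 1.46. That minimum lets a promoter pass where it is high, so the counts are a description. Of single promoters, picked after their values were seen, P4ha2, printed above, was at 45.1 against 16.7 peak CPM (2.70-fold, 1.47 to 4.54). Thbd was at 43.3 against 12.1 peak CPM (3.58-fold, 1.91 to 6.15), Sox7 at 79.8 against 27.3 and Plod2 at 52.0 against 24.5. The Nid1 promoter, at 3.47 against 2.60 peak CPM (1.33-fold, 0.0337 to 7.48), was under the minimum, and that of Lamc1 was 1.45-fold more accessible. Sox7 promoters were also at 76.9 peak CPM in the visceral reference, where its RNA was at 13.6 CPM. The promoter of Arhgap6, whose RNA was 99.5-fold higher, held 2 counts (1 estimated fragment) in the top 30, 3.47 against 15.6 peak CPM, and the interval of its 0.223-fold value, 0.00563 to 1.24, included a fold of 1. At the beginning of the longer RefSeq gene the peak at chrX:168795243-168795949 was at 5.20 against 5.53 peak CPM, on 3 counts.

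**Figure D5:**
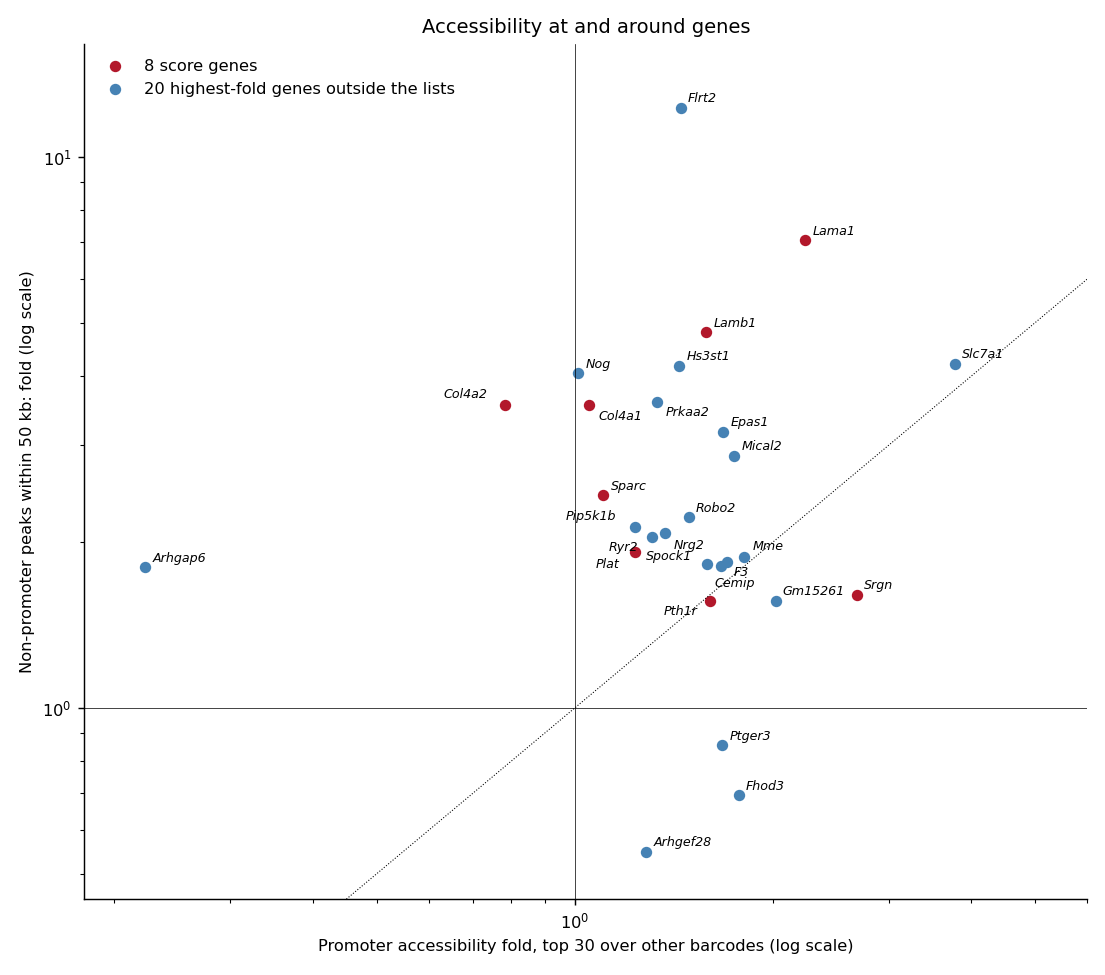
Accessibility fold of the top 30 over the other barcodes (log axes) at promoters on the x axis and in non-promoter peaks within 50000 bp on the y axis, 1 point per gene, for the 8 score genes and the 20 highest-fold genes outside the lists. Of the 28 points 22 lie above the dotted line of equal folds, Arhgap6 lies far left at 0.223 on 2 promoter counts, and many points rest on few counts.

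Peaks called by size lay mostly away from promoters, as did peaks in general: 9.79% of all 229480 peaks lay at a promoter. The peaks with enough counts to be called in the top 30, however, were mostly promoter peaks, 9597 of 14780. Of 14780 peaks with at least 10 counts in the top 30, 2318 were at least 4-fold more accessible there (15.7%), namely 112 of 9597 promoter peaks (1.17%) and 2206 of 5183 others (42.6%). Counted as estimated fragments the 2318 became 693, and without a minimum 15430. In the other 70 the counts were 1922 of 31662 (6.07%), with 0.396% of promoter peaks and 10.4% of others, and the 1922 became 337 as fragments, 7972 without a minimum and 6430 for members scored without subtraction. A weak peak passes the minimum more easily where it is high, so these shares describe the peaks that passed. The 10 peaks with the highest fold and counts in at least 8 of the top 30 nuclei ran from 116-fold to 85.9-fold, and 0 of them lay at a promoter. The first (chr10:20090311-20091138, inside Map3k5) was at 74.5 peak CPM in the top 30, 6.10 in the other 70, 0.645 in the other barcodes and 0.404 in the visceral reference, with counts in 14 nuclei. The second (chr13:109676658-109677383) lies inside Pde4d, which was also high in RNA, and was at 64.2 against 0.557 peak CPM. Others lay inside Mtr, Snap91, Myo16, Sema6d, Rhobtb1 and Syne1, and 2 lay outside RefSeq protein-coding genes, near Mocs2 and 4933432K03Rik.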

How the data were processed

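Nuclear RNA and accessible chromatin were measured in 2 samples, 1 library each, from pooled E7.0 embryos. Per the file headers and the submitters' processing notes, Cell Ranger ARC 2.0.0 made the matrix on mm10. The deposited values were raw counts: UMI counts for 32285 genes and counts for 229480 peaks. The aligner, peak caller settings and barcode filters are not given in the sources used here. Of the peak values 86.4% were even, so intervals on accessibility used estimated fragments (each count divided by 2 and rounded up), rescaled to the ratio of the counts.

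Counts were summed over nuclei and divided by the group's total. Intervals of counts were exact Poisson, of ratios exact conditional binomial, and of shares Clopper-Pearson, with scipy 1.17.1. Each group held 1 library, so no test was run. Scrublet (scanpy 1.11.5, expected rate 0.1) called doublets, which were kept and, as an alternative, left out. Genes with under 5 UMIs both seen and expected were called too low. Strand came from RefSeq (6257 of the genes undecided, given 1000 bp to each side). The interval and the 4-fold call were tried on simulated Poisson counts of genes expected at 20 or more UMIs. That simulation held no variation between nuclei and no choice of members by score. Peaks, estimated fragments and genes with lower counts were not simulated.

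The members and lists were chosen with earlier results of these data known. Genes were named by rule: the score genes, up to 5 most counted genes per list, and outside the lists the 20 highest and 10 lowest folds in the top 30, the 10 highest and lowest in the other 70 and the 10 highest and lowest between them. Alternatives were other members (no doublet calls, deeper nuclei, no subtraction, genes divided by their SD), means over nuclei, thinning to 3000 UMIs, no minimum count, fragments and promoters of 2000 bp to each side. Exons and introns were not annotated here. One gene that this rule names is not reported here.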

Additional observations from a re-analysis of the deposited data

How the results depend on the processing

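No paired analysis was possible because each assay had 1 library. In the order used below, the lists are parietal outside the score, basement membrane and visceral. For the top 30 (10.2, 5.33 and 0.486-fold), nuclei with at least 5000 UMIs and 5000 peak counts gave 9.43, 4.90 and 0.541, and means over nuclei 11.0, 5.54 and 0.543. Thinning to 3000 UMIs gave 10.9 for the parietal and 0.534 for the visceral list. The visceral fold was 0.680 without subtraction and 0.546 with genes divided by their SD. For the other 70 (1.90, 1.93 and 1.17-fold), the parietal fold was 1.82 without doublet calls, 1.70 in deeper nuclei, 3.78 without subtraction and 3.21 with division by the SD. The visceral fold was then 1.51 and 1.57, and the basement membrane fold was 2.03 as a mean over nuclei. Promoter accessibility of the score genes in the other 70 was 1.70-fold without subtraction. List edits made after seeing the data: without Dab2 the parietal fold was 15.8 and 2.41, and without Lamc1 and Nid1 the basement membrane fold reversed to 0.773 in the top 30 and was 1.59 in the other 70.

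Genes at least 4-fold higher numbered 203 and 67. Without a minimum count they numbered 971 and 826, and after thinning 97 and 29, with fewer UMIs for the same minimum. In the other 70 they numbered 207 without subtraction and 129 with division by the SD. Peaks at least 4-fold higher numbered 2318 and 1922, with no minimum 15430 and 7972, and as estimated fragments 693 and 337, with lower counts for the same minimum. In the other 70 they numbered 6430 without subtraction and 4066 with division by the SD. The members behind these values changed: 29, 27, 27 and 28 of the top 30, and 66, 64, 10 and 19 of the other 70, were shared with the selections without doublet calls, in deeper nuclei, without subtraction and with division by the SD. The remaining 44 of 78 alternative values stayed within the interval, or within 1.5 times for a count. The cause of each move was not tested. Depth limits the promoter values, since the promoters of single score genes held 12 to 43 counts in the top 30.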

Other observations

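Nuclei like the top 30 also lay outside the depth range. Of the barcodes that missed it, 8 had a score at or above that of rank 30, and 6 of these fell short on peak counts and 2 on UMIs. Their parietal list outside the score ran from 3073 through 11980 to 19960 CPM, and 6 of the 8 reached the lowest of the top 30. At or above the score of rank 100 there were 27 such barcodes, with a median list level of 1914 CPM.

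Among the other barcodes, 41 reached the lowest list level of the top 30. They held Dab2 at 4730 CPM and Cubn at 9294, against 518 and 230 in the top 30, with Lama1 at 995, Nid1 at 58.4 and Thbd at 2.16. Their visceral list stood at 7871 CPM. Such nuclei were picked after their values were seen, by a list that holds Dab2, Nid1 and Thbd, so those values are a description. Cubn and Lama1 entered the score that chose the top 30, so their values are a description as well.

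For Arhgap6 the files place its starts from chrX:169036611 on, while the RefSeq gene begins 241517 bp upstream. Inside the RefSeq gene a peak at chrX:168942847-168943710, picked after its values were seen, held 19.1 peak CPM in the top 30, 6.10 in the other 70 and 0.621 in the other barcodes, on 11 counts from 5 nuclei. Which start the RNA came from was not tested.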
